A study of Homo sapiens with 12 samples.

Results

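SK-UT-1 is an established human uterine leiomyosarcoma (uLMS) cell line, and the 37 genes described here are its genes of glycolysis, of the pentose phosphate pathway and of the response to low oxygen. They are listed by name for these pathways, and the rule uses no measured value, though the list was chosen with earlier results of these data known. They are 37 of the 22784 gene symbols with values, and 36 of them were among the 14839 genes that passed the filter on low values (a normalized count of at least 10 in at least 3 libraries). CA9, which encodes a carbonic anhydrase of the cell surface, did not pass. By role, 8 members act on hexoses in the first phase of glycolysis, 7 act on triose sugars in the second, 3 sit at the fate of pyruvate, 2 make or remove fructose 2,6-bisphosphate, 3 belong to the pentose phosphate pathway, 2 encode alpha subunits of the hypoxia-inducible factors (HIF), 2 encode HIF prolyl hydroxylases and 10 are known targets of these factors.

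All libraries came from SK-UT-1 cells, a single line with no separate clone or tissue beside it. RNA-seq was performed after 48 h with the DMSO vehicle, with 5 µM JQ1 or with 5 µM I-BET 762. Both compounds bind the bromodomains of the BET proteins, which read acetylated histones. JQ1 is a thienotriazolodiazepine and I-BET 762 a triazolobenzodiazepine, so that, among other differences, the ring fused to the diazepine is a thiophene in JQ1 and a benzene in I-BET 762. The samples are labelled as 4 per group. Values were analysed for 3 DMSO libraries (replicates 13, 14 and 15), 4 JQ1 libraries (replicates 17, 18, 19 and 20) and 3 I-BET 762 libraries (replicates 21, 22 and 23). DMSO replicate 16 and I-BET 762 replicate 24 were not analysed here. No source says that the libraries of a group came from separate cultures, so the p-values measure the spread between these libraries only, which may be technical.

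Glycolysis splits glucose into pyruvate, and lactate dehydrogenase turns pyruvate into lactate so that the pathway can keep running without oxygen. The pentose phosphate pathway branches off at glucose 6-phosphate and supplies NADPH and ribose. When oxygen is present, prolyl hydroxylases mark the HIF alpha subunits for destruction, and when it is scarce the subunits persist, pair with ARNT and switch on glycolytic enzymes, angiogenic factors and genes of mitophagy and collagen processing. HIF bind DNA at a core of ACGTG or GCGTG, and MYC and related factors bind at CACGTG, which contains ACGTG.

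Each library held between 35564586 and 39658989 reads on genes. A level below is a normalized count, which is the read count divided by the scaling factor of its library. Scaling factors were 1.03 to 1.10 with DMSO, 0.9101 to 0.9996 with JQ1 and 0.997 to 1.02 with I-BET 762. At these depths a count of 0 allows a true level of up to 3 reads, which corresponds to normalized counts of 2.73 to 3.30. This limit covers counting error only. Of 9 smooth muscle markers, 8 had values and 5 were at 10 or more in every library. Their summed normalized count was 35944 to 37869 with DMSO, 22607 to 22898 with JQ1 and 22795 to 23301 with I-BET 762, and MYOCD had at most 3 reads in every library. The markers did not all move alike. The mean of TAGLN was 1599, 126 and 157 with DMSO, JQ1 and I-BET 762, while that of SMTN was 2324, 2644 and 2657. The summed count of 5 fibroblast markers was 16933 to 20858, 9348 to 12614 and 12535 to 13876 in the same order, nearly all of it from COL1A2. That of 5 epithelial markers was 1212 to 1271, 511 to 602 and 497 to 544. The 5 endothelial markers summed to at most 12.2 in any library and the 4 leukocyte markers with values to at most 47.1, with PTPRC at or near 0. The part of these marker changes in the results below was not tested, and in bulk RNA fewer cells of a type and less RNA per cell cannot be told apart.

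With JQ1, 9 of the 36 tested members were higher than in the DMSO libraries at an adjusted p under 0.05 (limma, Benjamini-Hochberg over all tested genes) and a fold change over 1.5. They were the glycolytic enzymes ALDOA, ALDOC, TPI1 and GAPDH, the lactate dehydrogenase gene LDHA, the HIF subunit gene EPAS1, and the HIF targets BNIP3, ANKRD37 and P4HA1. Over all tested genes 13.3% were higher by this rule. The 3 members that fell were PFKP, PFKFB4 and P4HA2, against 22.8% of all tested genes that were lower. In either direction 36.1% of all tested genes were called with JQ1. Without the fold threshold 21 members were higher and 5 lower with JQ1, against 36.0% and 35.6% of all tested genes, and the median log2 fold change was 0.27 over the members and 0.01 over all tested genes. The JQ1 and DMSO libraries did not overlap for 21 members that were higher and 5 that were lower, against 34.1% and 34.3% of all tested genes.

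With I-BET 762, 4 members rose and 6 fell. ALDOC, TPI1, GAPDH and EPAS1 were higher, against 8.96% of all tested genes. PFKP, PDK1, PFKFB4, EGLN3, P4HA2 and ADM were lower, against 17.9% of all tested genes, and 26.9% were called in either direction. Without the fold threshold 11 members were higher and 12 lower, against 29.9% and 31.3%, and the median log2 fold change was -0.01 over the members and 0.00 over all tested genes. The groups did not overlap for 13 members that were higher and 13 that were lower, against 34.8% and 36.2% of all tested genes. The comparisons of JQ1 and of I-BET 762 with DMSO share the same 3 DMSO libraries.

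The scaling of the libraries moved these counts. When each library was rescaled to the same total, the median log2 fold change of all tested genes shifted by -0.185 with JQ1, by -0.0967 with I-BET 762 and by -0.0887 between the inhibitors. At an adjusted p under 0.05 the members were then 16 higher and 9 lower with JQ1, against 23.8% and 46.6% of the 14833 genes tested at that scaling, and 7 higher and 14 lower with I-BET 762, against 22.6% and 38.2%. The JQ1 rises of HK1, HK2, PFKL, HIF1A and VEGFA given below then no longer passed (log2 fold changes 0.04, 0.09, 0.09, 0.06 and 0.11). Nor did the I-BET 762 rises of HK1, PKM, TALDO1 and P4HA1 (0.06, 0.09, 0.06 and 0.07). With JQ1 28 of the 36 members lay above the median of all tested genes, and 18 of 36 with I-BET 762. Rescaling moves all genes of a library by the same factor, so these counts above the median could hardly change with the scaling.

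**Figure D1:**
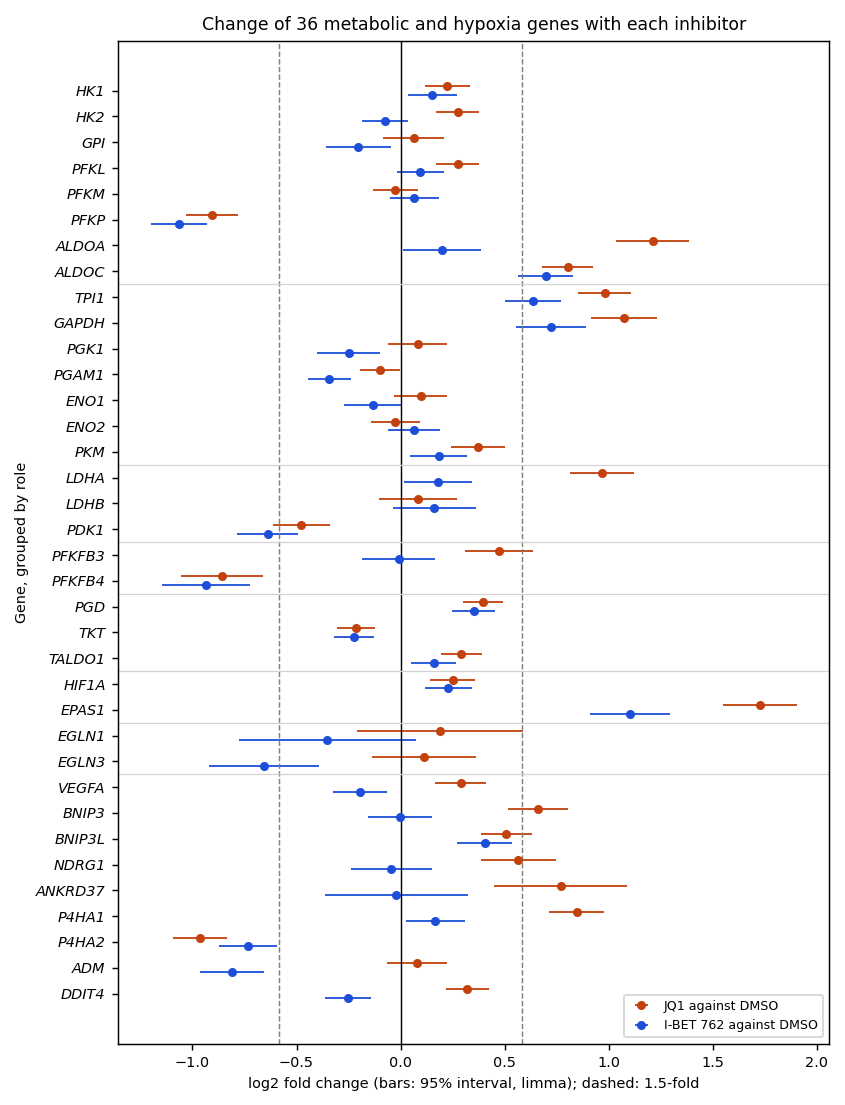
Log2 fold change against DMSO (x axis) of the 36 tested members (y axis, grouped by role) with JQ1 in orange and I-BET 762 in blue, with 95% intervals from limma and dashed lines at 1.5-fold. EPAS1 lies farthest to the right with both inhibitors, at 1.73 and 1.10, and ALDOA, LDHA, P4HA1, ANKRD37 and BNIP3 have an orange point past the right line and a blue point near 0.

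Since several members are textbook HIF targets, the 250 bases before their transcription start were read from the RefSeq promoter table (GRCh38.p14), where 34 of the 37 members had an entry. VEGFA, BNIP3L and NDRG1 had none. Where a gene had several entries, the one nearest the start of its canonical Gencode transcript was taken, and for 27 of the 34 members it lay within 50 bases of that start. ACGTG on either strand was found before 17 of 34 members, before 23.55% of the 11243 tested genes with an entry and before 18.75% of all 27303 promoters. GCGTG on either strand was found before 13 of 34 members (38.2%), 46.7% of tested genes with an entry and 32.6% of all promoters. CACGTG, which is its own reverse complement and holds ACGTG on both strands, was found before 6 of 34 members (17.65%), 8.89% of tested genes with an entry and 6.53% of all promoters. ACGTG stood before 7 of the 9 members that rose with either inhibitor and before 1 of the 6 that fell, and GCGTG before 3 of the 9 and 2 of the 6. CACGTG, the site of MYC and related factors, stood before 5 of the 9 and 0 of the 6, so many of these ACGTG matches lie within CACGTG. The windows of PFKP and P4HA2, which fell, end at starts 422 and 762 bases past the canonical start. That of GAPDH, which rose, ends at a start 747 bases past it. Among windows with a start within 50 bases of the canonical start, ACGTG stood before 6 of 8 members that rose and 1 of 4 that fell. CACGTG stood before 4 of these 8 and 0 of these 4. ACGTG or GCGTG stood before 7 of these 8 and 3 of these 4, against 59.35% of tested genes with such a window. Over the 27 members whose window lay within 50 bases of the canonical start, 15 had ACGTG (55.6%), against 23.8% of tested genes whose window met the same limit. Such matches describe the letters of these windows and not the binding of a factor.

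The windows below belong to 4 of the 5 members that rose with JQ1 but were not called with I-BET 762 (LDHA, P4HA1, BNIP3 and ANKRD37), to ALDOC and TPI1, which rose with both inhibitors, and to PFKFB4, which fell with both. They are written 5′ to 3′ on the strand of the gene, and capitals mark ACGTG or GCGTG and their reverse complements, CACGT and CACGC. They lie at chr11:18394313-18394562, plus strand (LDHA), chr10:73096867-73097116, minus strand (P4HA1), chr10:131981924-131982173, minus strand (BNIP3), chr4:185396591-185396840, plus strand (ANKRD37), chr17:28576896-28577145, minus strand (ALDOC), chr12:6867281-6867530, plus strand (TPI1) and chr3:48556804-48557053, minus strand (PFKFB4).
LDHA: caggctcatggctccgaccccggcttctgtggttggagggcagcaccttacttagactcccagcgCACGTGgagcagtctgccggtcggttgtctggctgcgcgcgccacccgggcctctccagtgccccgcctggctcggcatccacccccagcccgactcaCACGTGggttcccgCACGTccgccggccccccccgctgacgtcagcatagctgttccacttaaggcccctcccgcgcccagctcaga
P4HA1: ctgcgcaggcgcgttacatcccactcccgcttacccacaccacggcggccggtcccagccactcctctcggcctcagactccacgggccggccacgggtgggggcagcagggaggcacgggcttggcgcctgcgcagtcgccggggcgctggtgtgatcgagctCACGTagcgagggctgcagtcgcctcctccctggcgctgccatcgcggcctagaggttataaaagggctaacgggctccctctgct
BNIP3: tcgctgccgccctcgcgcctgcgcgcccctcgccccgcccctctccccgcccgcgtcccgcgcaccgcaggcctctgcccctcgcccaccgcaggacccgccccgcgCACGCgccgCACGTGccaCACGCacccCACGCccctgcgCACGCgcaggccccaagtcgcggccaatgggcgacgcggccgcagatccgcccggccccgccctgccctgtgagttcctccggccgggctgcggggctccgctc
ANKRD37: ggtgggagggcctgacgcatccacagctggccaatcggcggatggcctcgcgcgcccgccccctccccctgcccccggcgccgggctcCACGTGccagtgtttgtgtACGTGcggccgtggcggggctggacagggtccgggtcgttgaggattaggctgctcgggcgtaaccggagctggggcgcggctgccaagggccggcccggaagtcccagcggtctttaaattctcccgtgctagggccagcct
ALDOC: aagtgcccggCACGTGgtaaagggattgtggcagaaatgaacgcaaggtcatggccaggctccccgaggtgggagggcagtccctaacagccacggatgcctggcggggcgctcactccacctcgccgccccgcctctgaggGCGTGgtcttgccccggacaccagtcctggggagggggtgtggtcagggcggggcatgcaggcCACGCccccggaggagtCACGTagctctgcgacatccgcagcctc
TPI1: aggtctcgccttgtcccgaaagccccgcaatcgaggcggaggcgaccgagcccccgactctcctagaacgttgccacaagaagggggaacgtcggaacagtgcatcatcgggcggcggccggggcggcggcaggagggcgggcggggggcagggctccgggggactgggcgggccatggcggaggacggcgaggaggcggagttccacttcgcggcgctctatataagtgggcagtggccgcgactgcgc
PFKFB4: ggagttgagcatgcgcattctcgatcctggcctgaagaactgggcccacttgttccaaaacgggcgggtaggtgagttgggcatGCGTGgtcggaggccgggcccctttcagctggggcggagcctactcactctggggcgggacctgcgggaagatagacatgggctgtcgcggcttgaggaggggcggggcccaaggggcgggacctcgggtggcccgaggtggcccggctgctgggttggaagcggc
Counted on both strands, so that each CACGTG counts as 2 matches to ACGTG at 1 site, the LDHA window holds 5 matches to ACGTG. The ANKRD37 and ALDOC windows hold 3 each, the BNIP3 window 2 beside 4 to GCGTG, and the P4HA1 window 1. The TPI1 window holds neither motif, and the PFKFB4 window holds 1 GCGTG.

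In the hexose phase, where glucose is phosphorylated and cut into trioses, 2 of 8 members rose and 1 fell with JQ1, and 1 rose and 1 fell with I-BET 762. Beside this and the counts by role below, 13.3% of all tested genes rose and 22.8% fell with JQ1. With I-BET 762 these shares were 8.96% and 17.9%. The aldolase gene ALDOC, whose product cuts fructose 1,6-bisphosphate, was at 3228, 3131 and 3052 in the DMSO libraries, at 5045, 5854, 5127 and 5932 with JQ1 and at 5038, 5157 and 5061 with I-BET 762. Every treated library lay above every DMSO library, and the inhibitor groups overlapped each other. ALDOC was 1.75-fold higher with JQ1 (log2 fold change 0.80, SE 0.0581, adjusted p = 4.26e-09) and 1.62-fold higher with I-BET 762 (log2 fold change 0.70, SE 0.0621, adjusted p = 1.06e-07).

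ALDOA, the aldolase gene of muscle and most other tissues, was at 417, 409.6 and 462 with DMSO, at 1101, 959.6, 940.4 and 988 with JQ1 and at 449, 482 and 553 with I-BET 762. The JQ1 libraries stood apart from all others, and the I-BET 762 libraries overlapped the DMSO libraries. ALDOA was 2.32-fold higher with JQ1 (log2 fold change 1.21, SE 0.083, adjusted p = 2.24e-09), while with I-BET 762 the log2 fold change was 0.20 (adjusted p = 0.0629). In Gencode V44, 42.8% of the ALDOA exon bases also lie in exons of another gene on the same strand (ENSG00000285043), how the counting treated shared bases was not given in the sources used here, and per kilobase of exon ALDOA was at 112 against 1201 for ALDOC in the DMSO libraries.

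PFKP, the platelet-type phosphofructokinase at the committed step of glycolysis, fell with both inhibitors. It was at 4447, 4589 and 4678 with DMSO, at 2742, 2251, 2457 and 2326 with JQ1 and at 2178, 2157 and 2215 with I-BET 762. The treated libraries all lay below the DMSO libraries, by 1.88-fold with JQ1 (log2 fold change -0.91, SE 0.0595, adjusted p = 1.35e-09) and 2.09-fold with I-BET 762 (log2 fold change -1.07, SE 0.0636, adjusted p = 1.22e-09). The other phosphofructokinases did not follow it. PFKL, the liver type, was at 5803, 5392 and 5377 with DMSO, at 6723, 6225, 6773 and 7009 with JQ1 and at 5991, 5957 and 5742 with I-BET 762. It had a log2 fold change of 0.27 with JQ1 (adjusted p = 0.000117) and 0.09 with I-BET 762 (adjusted p = 0.132). PFKM, the muscle type, was at 6027, 6288 and 6309 with DMSO, at 5801, 6198, 5821 and 6609 with JQ1 and at 6648, 6595 and 6263 with I-BET 762, with log2 fold changes of -0.03 and 0.07 that did not pass the test.

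The hexokinases, which trap glucose in the cell, changed by less than 1.5-fold. HK1 was at 5590.2, 5576 and 5737 with DMSO, at 6446, 6596, 6134 and 7205 with JQ1 and at 6115, 6376 and 6306 with I-BET 762. It had a log2 fold change of 0.22 with JQ1 (adjusted p = 0.000998) and 0.15 with I-BET 762 (adjusted p = 0.0242). HK2, the inducible hexokinase, was at 4186, 3918, 3983 and 4131 with JQ1, above the DMSO libraries at 3238, 3447 and 3363, with a log2 fold change of 0.28 (adjusted p = 0.000101). With I-BET 762 it was at 3022, 3177 and 3357, with a log2 fold change of -0.07 (adjusted p = 0.238). GPI, the isomerase that follows, was 1.15-fold lower with I-BET 762 (adjusted p = 0.0251) and had a log2 fold change of 0.06 with JQ1 (adjusted p = 0.422), a value that turned to -0.12 with equal totals and to -0.02 without DMSO replicate 14.

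In the triose phase, 2 of 7 members rose with both inhibitors and limma and limma-voom called 0 lower. At an adjusted p under 0.05 alone, 3 were higher and 0 lower with JQ1, against 36.0% and 35.6% of all tested genes. With I-BET 762, 3 were higher and 2 lower by that rule, against 29.9% and 31.3%. At an unadjusted p under 0.05, 1 was lower with JQ1. GAPDH, which oxidizes glyceraldehyde 3-phosphate and is the most abundant member per kilobase of exon in every group, was at 166870.0, 173658 and 167411 in the DMSO libraries. It was at 339232, 392215, 347826 and 348935 with JQ1 and at 289706, 280009 and 268077 with I-BET 762. The 3 groups did not overlap, with JQ1 highest. GAPDH was 2.11-fold higher with JQ1 (log2 fold change 1.07, SE 0.0738, adjusted p = 2.32e-09) and 1.65-fold higher with I-BET 762 (log2 fold change 0.72, SE 0.0789, adjusted p = 1.04e-06).

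TPI1, which interconverts the triose phosphates, showed the same order. It was at 39571, 41952 and 41002 with DMSO, at 76756, 88641, 78068 and 79289.9 with JQ1 and at 64769.5, 64809 and 61168 with I-BET 762. The change was 1.97-fold with JQ1 (log2 fold change 0.98, SE 0.0589, adjusted p = 4.83e-10) and 1.56-fold with I-BET 762 (log2 fold change 0.64, SE 0.063, adjusted p = 3.31e-07). With equal totals the I-BET 762 value was 0.54, below the fold threshold. GAPDH and TPI1 lie 329 kb apart on chromosome 12, and ENO2, the neuronal enolase, lies 42.8 kb beyond TPI1. ENO2 was at 1116, 1036 and 1087 with DMSO, at 1027, 1062, 1030.5 and 1124 with JQ1 and at 1119.8, 1129 and 1138 with I-BET 762, and neither change passed the test (adjusted p = 0.693 and 0.356).

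The other triose-phase enzymes moved less. PKM, the pyruvate kinase, was 1.29-fold higher with JQ1 (adjusted p = 4.71e-05) and 1.14-fold higher with I-BET 762 (adjusted p = 0.0228). PGK1, the first enzyme of the pathway that yields ATP, was at 30768 ± 1179 (SD, n = 3) in the DMSO group, at 32716 ± 3453 (SD, n = 4) in the JQ1 group and at 25864 ± 464 (SD, n = 3) in the I-BET 762 group. It was lower with I-BET 762 (log2 fold change -0.25, SE 0.0712, adjusted p = 0.00641), while the JQ1 libraries overlapped the DMSO libraries (adjusted p = 0.272). ENO1, the main enolase and the second member per kilobase in the DMSO libraries, was at 100113, 105674 and 102384 with DMSO, at 104670.0, 119343, 106190.0 and 109816 with JQ1 and at 94453, 94718 and 91850.5 with I-BET 762. It had log2 fold changes of 0.10 with JQ1 and -0.13 with I-BET 762, neither of which passed the test (adjusted p = 0.16 and 0.0857). With equal totals the JQ1 values of PGK1 and ENO1 turned to -0.10 and -0.09. PGAM1, the phosphoglycerate mutase, was 1.27-fold lower with I-BET 762 (adjusted p = 1.62e-05) and had a log2 fold change of -0.10 with JQ1 (adjusted p = 0.0608). Of 31 stretches of 75 bases in its exons, 19 have an exact copy elsewhere in the genome, so its reads may be split with those copies.

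At the fate of pyruvate the inhibitors gave different values for LDHA, whose product reduces pyruvate to lactate. LDHA was at 37358, 41809.6 and 41222 in the DMSO libraries, at 78142, 87132, 76196 and 72896 with JQ1 and at 41284, 46835 and 48389.7 with I-BET 762. Every JQ1 library lay above every other library, and the I-BET 762 libraries overlapped the DMSO libraries. The change was 1.96-fold with JQ1 (log2 fold change 0.97, SE 0.0716, adjusted p = 5.59e-09) and 1.13-fold with I-BET 762, which did not pass the test (adjusted p = 0.0528).

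LDHB, the heart-type subunit, was at 1254, 1383 and 1325 with DMSO, 1247, 1717, 1264 and 1418 with JQ1 and 1450.4, 1521 and 1463 with I-BET 762. Neither change passed the test (adjusted p = 0.4 and 0.145), the JQ1 value of 0.08 turned to -0.10 with equal totals and to -0.01 without JQ1 replicate 18, and 33.4% of the LDHB exon bases are shared with another gene on the same strand. PDK1, a kinase that switches off pyruvate dehydrogenase, was lower with both. It was at 1904, 1885 and 1864 with DMSO, at 1414, 1443, 1359.6 and 1213 with JQ1 and at 1136, 1216 and 1282 with I-BET 762, and no treated library reached the DMSO libraries. The fall was 1.39-fold with JQ1 (log2 fold change -0.48, SE 0.064, adjusted p = 5.76e-06), which is under the fold threshold, and 1.56-fold with I-BET 762 (log2 fold change -0.64, SE 0.0684, adjusted p = 8.25e-07).

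The kinases and phosphatases that set fructose 2,6-bisphosphate, the strongest activator of phosphofructokinase, parted. PFKFB4 was at 858, 889 and 837 with DMSO, at 507, 424, 444 and 531 with JQ1 and at 430.0, 518 and 409.5 with I-BET 762. It fell 1.81-fold with JQ1 (log2 fold change -0.86, SE 0.0936, adjusted p = 5.46e-07) and 1.91-fold with I-BET 762 (log2 fold change -0.93, SE 0.1, adjusted p = 8.29e-07), and the treated libraries lay below all DMSO libraries. PFKFB3 was at 1464, 1540.2 and 1477 with DMSO, at 2209, 1857, 2033 and 2230.3 with JQ1 and at 1351, 1429.7 and 1690.2 with I-BET 762. It was 1.39-fold higher with JQ1 (log2 fold change 0.48, SE 0.0768, adjusted p = 4.04e-05), under the fold threshold, and had a log2 fold change of -0.01 with I-BET 762 (adjusted p = 0.927).

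In the pentose phosphate pathway limma and limma-voom called 0 of 3 members at over 1.5-fold, and all 3 passed the adjusted p with both inhibitors. PGD, which yields NADPH in the oxidative branch, was at 6795 ± 209.8 (SD, n = 3) in the DMSO group, at 8940.0 ± 312 (SD, n = 4) in the JQ1 group and at 8676 ± 293 (SD, n = 3) in the I-BET 762 group, with adjusted p = 1.02e-06 and 1.28e-05. TALDO1, the transaldolase of the non-oxidative branch, was 1.23-fold higher with JQ1 (adjusted p = 3.99e-05) and 1.12-fold higher with I-BET 762 (adjusted p = 0.0121). TKT, the transketolase of the same branch, was lower with both, by 1.16-fold (adjusted p = 0.000288) and 1.17-fold (adjusted p = 0.000525).

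Of the HIF alpha subunits, EPAS1, which encodes HIF-2 alpha, had the largest fold change of all members with each inhibitor. It was at 237, 233 and 270.3 in the DMSO libraries, at 798, 744, 816 and 922 with JQ1 and at 508, 523 and 560.1 with I-BET 762. The 3 groups did not overlap. The rise was 3.31-fold with JQ1 (log2 fold change 1.73, SE 0.0843, adjusted p = 4.12e-11) and 2.15-fold with I-BET 762 (log2 fold change 1.10, SE 0.0901, adjusted p = 4.11e-08).

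HIF1A, which encodes HIF-1 alpha, was at 7964, 7975 and 8107 with DMSO, at 9055, 10429.8, 9538 and 9159 with JQ1 and at 9492, 9470.2 and 9222 with I-BET 762. Its treated libraries all lay above the DMSO libraries, by 1.19-fold with JQ1 (adjusted p = 0.000304) and 1.17-fold with I-BET 762 (adjusted p = 0.00152). Per kilobase of exon HIF1A was the more abundant subunit gene in every group, at 1556, 1853 and 1824 with DMSO, JQ1 and I-BET 762, against 33.9, 112 and 72.7 for EPAS1. The subunits are controlled mainly by protein stability, which was not measured.

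The prolyl hydroxylases EGLN1 and EGLN3 set that stability, and EGLN3 is itself a HIF target. EGLN3 was at 188, 222 and 184 with DMSO, at 208, 212, 204 and 230.2 with JQ1 and at 110.2, 121 and 146 with I-BET 762. The I-BET 762 libraries lay below all others, and the JQ1 and DMSO libraries overlapped. It was 1.57-fold lower with I-BET 762 (log2 fold change -0.65, SE 0.12, adjusted p = 0.000287), a fall that dropped under the fold threshold without DMSO replicate 14 (-0.57) or I-BET 762 replicate 21 (-0.56). With JQ1 the log2 fold change was 0.11 (adjusted p = 0.397), and -0.07 with equal totals. EGLN1 was at 456, 539 and 636 with DMSO, at 771, 475, 851 and 457 with JQ1 and at 432, 367 and 474 with I-BET 762. The JQ1 libraries split into a higher and a lower pair, neither change against DMSO passed the test (adjusted p = 0.374 and 0.14), and 55.8% of the EGLN1 exon bases are shared with another gene on the same strand.

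Among the 10 HIF target genes, of which 9 were tested, 3 rose and 1 fell with JQ1, and 0 rose and 2 fell with I-BET 762, by limma and by limma-voom. At an unadjusted p under 0.05, 2 were higher with I-BET 762. At an adjusted p under 0.05 alone, 7 of the 9 tested targets were higher with JQ1 and 2 with I-BET 762, and 1 and 4 were lower. Over all tested genes 36.0% were higher and 35.6% lower with JQ1 by that rule, and 29.9% and 31.3% with I-BET 762. P4HA1, a catalytic subunit of collagen prolyl 4-hydroxylase, was at 6846, 7425 and 7388 with DMSO, at 12953, 14654, 12544 and 11892 with JQ1 and at 7704, 8327 and 8289.7 with I-BET 762. It was 1.8-fold higher with JQ1 (log2 fold change 0.85, SE 0.0627, adjusted p = 5.71e-09) and 1.12-fold higher with I-BET 762 (adjusted p = 0.0407), and the JQ1 libraries stood apart from the rest.

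P4HA2, the other catalytic subunit of that enzyme, went the other way. It was at 2920.1, 2981 and 2878 with DMSO, at 1538, 1476, 1343 and 1655 with JQ1 and at 1808, 1720.4 and 1757 with I-BET 762. The 3 groups did not overlap, and JQ1 was lowest. The fall was 1.95-fold with JQ1 (log2 fold change -0.96, SE 0.0616, adjusted p = 1.01e-09) and 1.66-fold with I-BET 762 (log2 fold change -0.73, SE 0.0659, adjusted p = 1.19e-07).

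BNIP3 encodes a receptor that directs mitochondria to autophagy. It was at 6698, 7449 and 7246 with DMSO, at 12021, 11839.8, 11616 and 9674 with JQ1 and at 6812, 7211 and 7354 with I-BET 762. All 4 JQ1 libraries lay above the others, replicate 20 least so, and the I-BET 762 and DMSO libraries overlapped. BNIP3 was 1.58-fold higher with JQ1 (log2 fold change 0.66, SE 0.0678, adjusted p = 2.8e-07), and its log2 fold change with equal totals was 0.47, under the fold threshold. With I-BET 762 the 95% interval of its log2 fold change was -0.15 to 0.15. BNIP3L, a paralog with the same role, was higher with both inhibitors, at 7563, 8514 and 8593 with DMSO, 11891, 12637, 11398 and 10836 with JQ1 and 10593, 11006 and 11005 with I-BET 762, by 1.42-fold (adjusted p = 8.81e-07) and 1.32-fold (adjusted p = 3.54e-05).

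ANKRD37, a small ankyrin repeat gene, was at 157, 159.9 and 138 with DMSO, at 319.8, 256, 295 and 186 with JQ1 and at 154, 138 and 156 with I-BET 762. The JQ1 libraries were the highest and the most scattered, and it was 1.7-fold higher with JQ1 (log2 fold change 0.77, SE 0.15, adjusted p = 0.000272), a call that did not hold with equal totals (log2 fold change 0.58). Of its exon bases 40.4% lie opposite those of UFSP2 on the other strand, and whether the counting used strand is not given in the sources used here. With I-BET 762 its log2 fold change was -0.02 (95% interval -0.36 to 0.32). NDRG1, a growth arrest gene induced by low oxygen, was at 648, 639.8 and 529 with DMSO, at 847, 876, 869 and 984 with JQ1 and at 607, 532 and 619 with I-BET 762. Its 1.48-fold change with JQ1 (log2 fold change 0.57, SE 0.0848, adjusted p = 1.89e-05) was just under the fold threshold.

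ADM, which encodes the vasodilator peptide adrenomedullin, fell with I-BET 762 and not with JQ1. It was at 1220.3, 1236 and 1219 with DMSO, at 1435, 1185, 1328 and 1244 with JQ1 and at 668, 688 and 742 with I-BET 762. The I-BET 762 libraries lay far below all others, 1.75-fold lower than DMSO (log2 fold change -0.81, SE 0.0719, adjusted p = 1.02e-07). With JQ1 the log2 fold change was 0.08 (95% interval -0.06 to 0.22, adjusted p = 0.299), and -0.11 with equal totals.

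VEGFA, the main angiogenic factor, and DDIT4, an inhibitor of mTORC1, passed the test in opposite directions with the inhibitors, each by under 1.5-fold. VEGFA was at 1848, 1833 and 1801 with DMSO, at 2358, 2037, 2207 and 2353 with JQ1 and at 1590.1, 1529.9 and 1669 with I-BET 762, and its groups did not overlap. It was 1.22-fold higher with JQ1 (adjusted p = 0.000291) and 1.15-fold lower with I-BET 762 (adjusted p = 0.0118). With equal totals the JQ1 rise of VEGFA was 0.11 on the log2 scale and did not pass the test. DDIT4 was at 6485, 6669 and 6256 with DMSO, at 8667, 7692, 8151 and 7830.0 with JQ1 and at 5368, 5558 and 5342 with I-BET 762, 1.25-fold higher with JQ1 (adjusted p = 2.06e-05) and 1.19-fold lower with I-BET 762 (adjusted p = 0.000519). CA9 was at 0 in every DMSO library and at most 1.97 normalized counts in any treated library, which is under the limit that a count of 0 allows, so its expression was not detectable at this depth and no change is given.

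**Figure D2:**
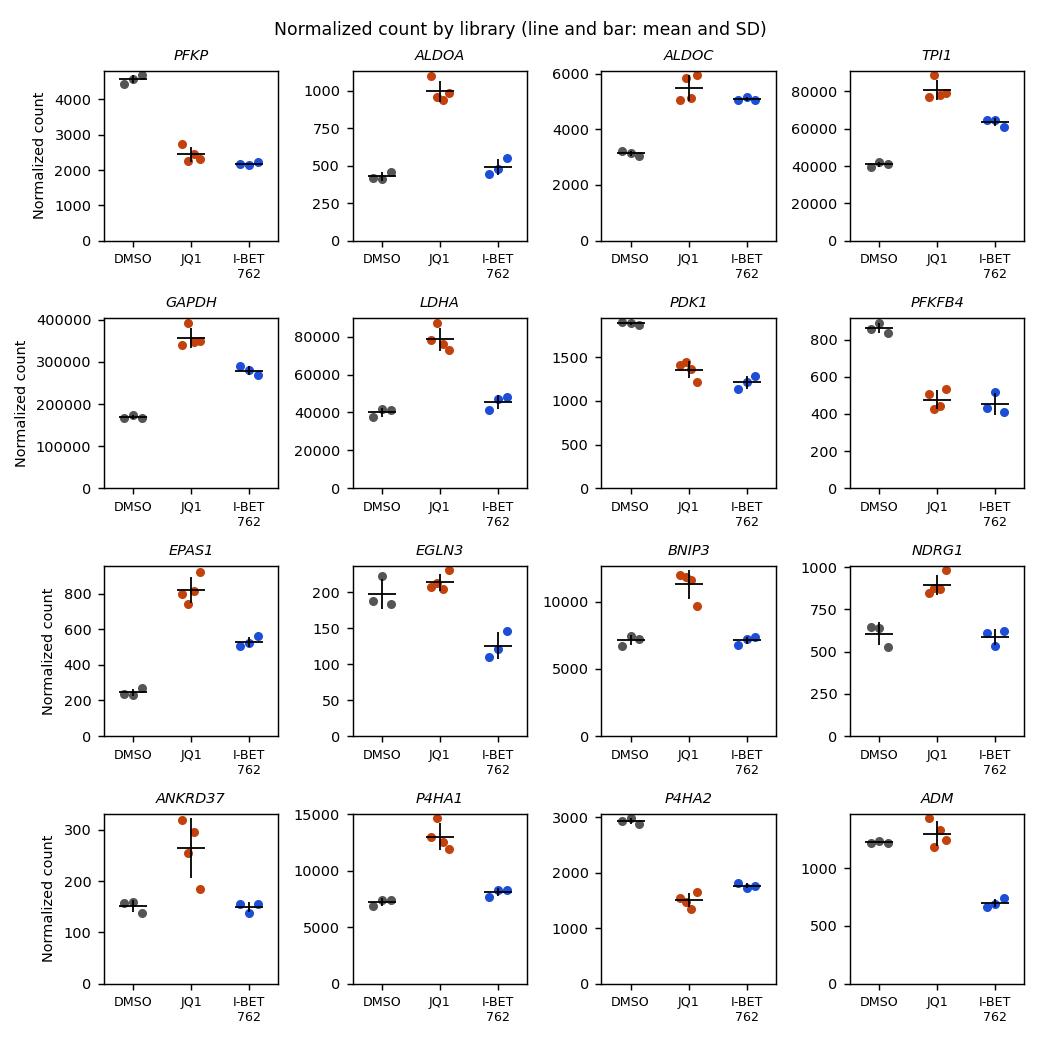
Normalized count (y axis, linear from 0, a scale per gene) of the 16 members called in any comparison, by library and group (x axis), with points for libraries, a horizontal line for the mean and a vertical bar for the SD. For LDHA the 4 JQ1 libraries lie between 72896 and 87132 and no other library exceeds 48389.7, whereas for PFKP and PFKFB4 both treated groups lie below the DMSO libraries.

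Compared directly at the same dose and time, JQ1 gave higher values than I-BET 762 for 9 members and lower values for 0 at an adjusted p under 0.05 and over 1.5-fold. Over all tested genes 1.73% were higher with JQ1 by this rule, 3.59% were lower and 5.31% were called in either direction. The 9 were ALDOA, ADM, ANKRD37, LDHA, EGLN3, P4HA1, BNIP3, EPAS1 and NDRG1. Without the fold threshold 23 members were higher with JQ1 and 1, P4HA2, was lower, against 13.3% and 14.0% of all tested genes, and the median log2 difference was 0.25 over the members and 0.00 over all tested genes. The groups did not overlap for 23 members higher with JQ1 and 1 lower, against 17.5% and 16.3% of all tested genes. With equal totals the counts were 18 and 3, against 6.73% and 23.8% of all genes tested at that scaling. Of the 36 members, 32 lay above the median of all tested genes, a count that rescaling could hardly change. At an unadjusted p under 0.05, 25 members were higher and 1 lower in limma. No share of all tested genes is given for an unadjusted p, here or in the counts by role. Limma-voom on the recovered reads also called 9 higher and 0 lower, against 241 and 498 of the 14839 tested genes.

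ALDOA had the largest difference, at 2.02-fold (log2 fold change 1.01, SE 0.083, adjusted p = 7.45e-07). For ADM it was 1.85-fold (log2 fold change 0.89, SE 0.0672, adjusted p = 3.72e-07). LDHA was 1.73-fold higher (log2 fold change 0.79, SE 0.0716, adjusted p = 2.18e-06) and P4HA1 1.6-fold (log2 fold change 0.68, SE 0.0627, adjusted p = 2.52e-06). The differences of ANKRD37 (log2 fold change 0.79, SE 0.15, adjusted p = 0.00134), EGLN3 (log2 fold change 0.77, SE 0.12, adjusted p = 0.000213) and BNIP3 (log2 fold change 0.66, SE 0.0678, adjusted p = 6.79e-06) were between 1.5- and 2-fold as well. EPAS1 (log2 fold change 0.62, SE 0.0843, adjusted p = 7.43e-05) and NDRG1 (log2 fold change 0.61, SE 0.0848, adjusted p = 9.7e-05) were close to the fold threshold. The EPAS1 value was 0.57 without JQ1 replicate 20, and that of NDRG1 was 0.56 without JQ1 replicate 20 and 0.54 without I-BET 762 replicate 22, which is under the threshold. With equal totals EPAS1, BNIP3 and NDRG1 were at 0.54, 0.57 and 0.52. DDIT4, at 0.57 (adjusted p = 1.04e-06), was the member just under the threshold.

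For 12 members the difference between the inhibitors did not pass the test, which does not show that the compounds acted alike on them. The narrowest intervals were those of the pentose phosphate genes TKT (-0.08 to 0.10) and PGD (-0.05 to 0.14). HIF1A had an interval of -0.09 to 0.13, HK1 of -0.04 to 0.18, PFKM of -0.20 to 0.02 and ENO2 of -0.21 to 0.03. For the members that changed with both inhibitors, the intervals were -0.02 to 0.23 for ALDOC, 0.03 to 0.29 for PFKP, -0.12 to 0.27 for PFKFB4, -0.02 to 0.23 for BNIP3L and 0.03 to 0.30 for PDK1. LDHB had an interval of -0.27 to 0.11. All of these bounds lie inside 1.5-fold in either direction.

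**Figure D3:**
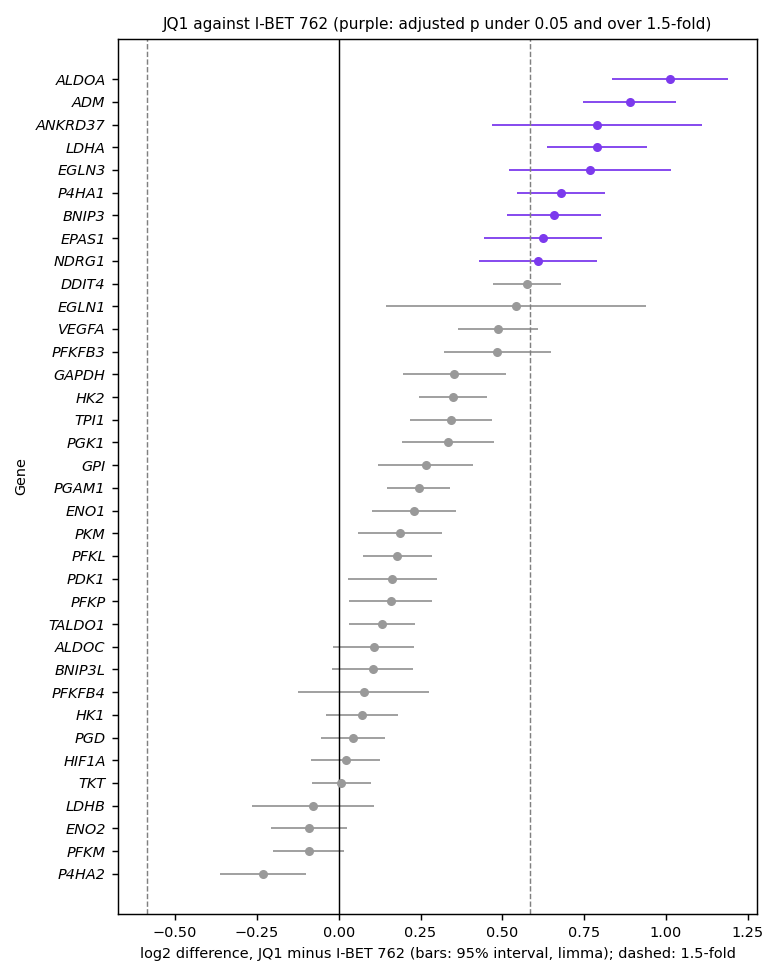
Log2 difference between JQ1 and I-BET 762 (x axis, positive where JQ1 is higher) of the 36 tested members (y axis, ordered by the difference), with 95% intervals from limma, dashed lines at 1.5-fold and purple for the 9 members called. ALDOA is at the top at 1.01, and 32 members lie to the right of 0, with P4HA2 at the bottom at -0.23.

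Ratios of related genes within a library do not depend on how the library was scaled. For 11 pairs the log2 ratios were compared by an exact two-sided permutation test, with adjustment over the 11 pairs. With 4 JQ1 libraries against 3 of another group, 35 arrangements allow a smallest p of 0.0286, and with 3 against 3, 20 arrangements allow 0.1, so that the comparison of I-BET 762 with DMSO cannot pass 0.05. With JQ1 against DMSO, 7 ratios were at the smallest exact p, with an adjusted p of 0.0449. EPAS1 over HIF1A was the single one of them that rose, with a log2 difference of 1.48. P4HA2 over P4HA1 fell by 1.81, PFKFB4 over PFKFB3 by 1.33, PFKP over PFKL by 1.18, LDHB over LDHA by 0.88, ALDOC over ALDOA by 0.41 and PFKM over PFKL by 0.30, all on the log2 scale.

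With I-BET 762 against DMSO, the ratio of P4HA2 to P4HA1 differed by -0.90, that of PFKFB4 to PFKFB3 by -0.92, that of PFKP to PFKL by -1.16 and that of EPAS1 to HIF1A by 0.87. In these 4 pairs the 3 I-BET 762 libraries lay wholly on one side of the DMSO libraries, and the exact permutation p was 0.1, the smallest possible. Of all 11 pairs, the groups did not overlap for 8 with either inhibitor, though not for the same 8. With I-BET 762 the others were ALDOC over ALDOA (0.50), BNIP3L over BNIP3 (0.40), HK2 over HK1 (-0.23) and ENO2 over ENO1 (0.20). With JQ1 these pairs differed by -0.41, -0.15, 0.05 and -0.12 in the same order, with overlapping libraries for HK2 over HK1 and ENO2 over ENO1. LDHB over LDHA differed by -0.02, with overlapping libraries.

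Between JQ1 and I-BET 762, 7 ratios were at the smallest exact permutation p, with an adjusted p of 0.0449. Relative to its partner, JQ1 gave more of HK2 over HK1 (0.28) and less of ALDOC over ALDOA (-0.91), P4HA2 over P4HA1 (-0.91), LDHB over LDHA (-0.87), BNIP3L over BNIP3 (-0.56), PFKFB4 over PFKFB3 (-0.41) and ENO2 over ENO1 (-0.32). The ratio of PFKP to PFKL differed by -0.02 between the inhibitors (exact permutation p = 0.771). The ratios with ALDOA, LDHB and EGLN1 carry the shared exon bases named above.

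**Figure D4:**
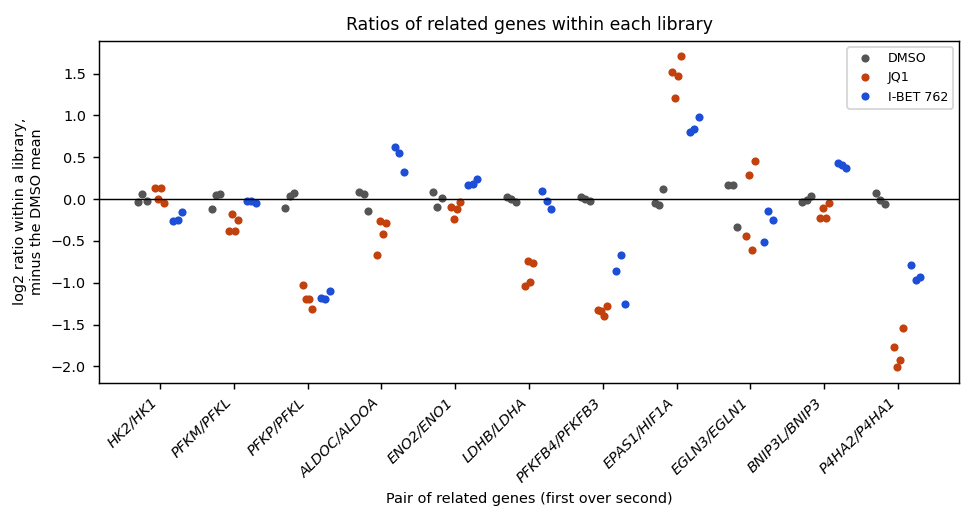
Log2 ratio of 11 pairs of related members within each library, minus the mean of the DMSO libraries (y axis), by pair (x axis), with a point per library in grey for DMSO, orange for JQ1 and blue for I-BET 762. The orange points of P4HA2 over P4HA1 lie lowest and those of EPAS1 over HIF1A highest, and the blue points of LDHB over LDHA lie around 0 with the grey ones while the orange ones lie below.

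The 15 glycolytic enzymes together took 1.2997% ± 0.0130 (SD, n = 3) of all normalized counts in the DMSO libraries, 1.78% ± 0.0587 (SD, n = 4) in the JQ1 libraries and 1.54% ± 0.0260 (SD, n = 3) in the I-BET 762 libraries. GAPDH alone was 0.481%, 0.892% and 0.743% in the same order. The other 14 enzymes together were at 0.818% ± 0.00564 (SD, n = 3), 0.890% ± 0.0316 (SD, n = 4) and 0.798% ± 0.00387 (SD, n = 3). The share of the library in its 10 most abundant genes was 6.61% to 6.68% with DMSO, 8.59% to 9.33% with JQ1 and 7.70% to 8.16% with I-BET 762, and its part in these shares was not tested.

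Other genes of the same pathways were taken from lists of 105 genes, also chosen with earlier results known, of which 101 had values and 86 were tested. With JQ1 8 were higher and 20 lower, with I-BET 762 5 were higher and 18 lower, and between the inhibitors 6 were higher with JQ1 and 2 lower. Over all tested genes the shares were 13.3% and 22.8% with JQ1, 8.96% and 17.9% with I-BET 762, and 1.73% and 3.59% between the inhibitors. Of the 33 other HIF targets tested, 4 rose and 10 fell with JQ1, and 2 rose and 9 fell with I-BET 762. By limma and by limma-voom, 6 were higher and 0 lower with JQ1 than with I-BET 762. At an adjusted p under 0.05 alone, 15 were higher and 3 lower between the inhibitors, against 13.3% and 14.0% of all tested genes.

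Among the other HIF targets ANGPTL4, a secreted inhibitor of lipoprotein lipase, was at 252, 292 and 259 with DMSO, between 997 and 1208 with JQ1 and 556, 634 and 665 with I-BET 762, 4.06-fold and 2.3-fold higher (adjusted p = 1.43e-11 and 3.07e-08). STC2, a secreted stanniocalcin, fell 2.91-fold with JQ1 and 4.22-fold with I-BET 762 (adjusted p = 4.99e-08 and 8.13e-09). RORA, a nuclear receptor, fell 3.83-fold and 3.13-fold (adjusted p = 8.57e-08 and 2.14e-06). All 3 had treated libraries wholly on one side of the DMSO libraries.

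Of 7 tested genes of glucose entry and lactate export, 2 rose and 2 fell with JQ1, and 0 rose and 4 fell with I-BET 762 by limma and by limma-voom. At an adjusted p under 0.05 alone, 3 were higher and 4 lower with I-BET 762, against 29.9% and 31.3% of all tested genes. The glucose transporter gene SLC2A12 fell with both, being at 539 ± 20.5 (SD, n = 3) in the DMSO group, at 172 ± 1.68 (SD, n = 4) in the JQ1 group and at 267 ± 4.25 (SD, n = 3) in the I-BET 762 group (adjusted p = 3.22e-11 and 4.62e-08). SLC2A6, another transporter of that family, fell 1.77-fold and 1.55-fold (adjusted p = 1.68e-08 and 1.63e-06). BSG, the chaperone of the lactate transporters, rose 1.76-fold with JQ1 (adjusted p = 1.05e-09) and was 1.41-fold higher with I-BET 762 (adjusted p = 1.59e-06), under the fold threshold.

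At the entry of pyruvate to the mitochondria and its use there, 1 of 13 tested genes rose and 3 fell with JQ1, and 2 rose and 2 fell with I-BET 762. PDK2, a pyruvate dehydrogenase kinase like PDK1, was at 1157, 1093 and 1132 with DMSO, 227, 215, 242 and 258 with JQ1 and 509.7, 433 and 445 with I-BET 762. Its fall was 4.78-fold with JQ1 (log2 fold change -2.26, SE 0.0822, adjusted p = 1.49e-12) and 2.44-fold with I-BET 762 (log2 fold change -1.29, SE 0.0879, adjusted p = 5.65e-09), and the inhibitors differed (adjusted p = 1.07e-06). PDK4, of the same family, fell 4.16-fold and 2.86-fold (adjusted p = 3.04e-06 and 0.000213). PC, the pyruvate carboxylase that feeds oxaloacetate to the citric acid cycle, rose 2.23-fold and 2.45-fold (adjusted p = 5.86e-10 and 9.56e-10).

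Of 12 other tested glycolysis genes, 0 rose and 4 fell with JQ1 by limma and by limma-voom, and 1 rose and 3 fell with I-BET 762. At an adjusted p under 0.05 alone, 4 were higher and 5 lower with JQ1, and 5 higher and 5 lower with I-BET 762. By that rule 36.0% of all tested genes were higher and 35.6% lower with JQ1, and 29.9% and 31.3% with I-BET 762. PFKFB2, a relative of PFKFB3 and PFKFB4, fell 2.32-fold and 1.93-fold (adjusted p = 9.24e-09 and 7.31e-07). GPD1, the glycerol 3-phosphate dehydrogenase, and PFKFB1 were called with 1 inhibitor each at levels of at most 36.5 normalized counts. Limma and limma-voom called 0 of the 9 other pentose phosphate genes tested with either inhibitor. At an adjusted p under 0.05 alone limma had 2 higher and 1 lower with JQ1, and 1 higher and 2 lower with I-BET 762. At an unadjusted p under 0.05 it had 3 higher and 1 lower with JQ1, and 2 higher and 2 lower with I-BET 762. Of 12 other genes of HIF control, 1 rose and 1 fell with JQ1 and limma and limma-voom called 0 with I-BET 762. There 4 were higher and 2 lower at an adjusted p under 0.05 alone, and 4 higher and 3 lower at an unadjusted p under 0.05. HIF1AN, the asparaginyl hydroxylase that blocks HIF activity, was 1.5-fold higher with JQ1 (adjusted p = 1.93e-07) and 1.49-fold with I-BET 762 (adjusted p = 9.86e-07). CREBBP, a HIF coactivator, was 1.75-fold lower with JQ1 (adjusted p = 4.02e-06) and 1.36-fold lower with I-BET 762 (adjusted p = 0.0029).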

How the data were processed

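RNA-seq of SK-UT-1 cells was analysed from the table of expression values. Per the labels and the study's methods, the authors used a strand-specific total RNA kit, checked reads with FastQC 0.73, trimmed them with Trimmomatic, aligned them to hg38 with HISAT2 2.2.1, counted them on Gencode V41 genes with featureCounts 2.0.3, removed samples they judged outliers and applied DESeq2's size factors. The deposited table gives, per gene symbol and library, the log2 of a normalized count to which 1 was added. The strand setting of the counting and how gene identifiers were merged into symbols are not given in the sources used here. Undoing the log2 and the added 1 gave whole multiples of a constant step for 99.67% to 99.72% of values per library (tolerance 0.01 read), which gave the reads behind each value and the scaling factors.

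Groups followed the treatment named in each library's labels. Genes with a normalized count of at least 10 in at least 3 libraries were fitted with limma 3.58.1 (R 4.3.3) on the deposited log2 scale, with the 10 libraries in 1 model and moderation with an intensity trend. Fold changes are on the log2(normalized count + 1) scale, which understates changes of low genes. P-values were adjusted by Benjamini-Hochberg over the 14839 genes tested. A call needed an adjusted p under 0.05 and over 1.5-fold, the thresholds the study names for its choice of transcription factors. The code was tested on simulated data: of genes changed 2-fold, 94 of 99 were called with JQ1 and 93 of 100 with I-BET 762, and of those changed 4-fold 99 of 99 with each, over 14687 and 14694 genes, with 2 and 5 unchanged genes called. The simulation changed few genes, as many up as down, with an assumed spread, whereas 36.1% of tested genes were called with JQ1 here. It does not show how often calls near 1.5-fold, or calls under a shift in scaling, are right. Tables used Python 3.11.15, pandas 2.3.3 and numpy 2.4.6, and figures matplotlib 3.10.9.

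Exon overlaps and exact copies of 75-base stretches were taken from Gencode V44 and hg38, since V41 was not used here. Promoter windows came from RefSeq (GRCh38.p14). Alternatives were pseudocounts of 0.5 and 5, no filter, a mean of at least 100, equal totals, equal upper quartiles, no trend, only the 2 groups compared, limma-voom on the recovered reads, no fold threshold, a fold over 2 and each library left out. All 37 members are accounted for; given by library are those called in any comparison, the HIF subunits, the hydroxylases and the isozyme pairs, and of each list of other pathway genes at most the 3 called genes with the largest change are named. The members and lists were chosen with earlier results of these data known.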

Additional observations from a re-analysis of the deposited data

Results flagged for a closer look

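TALDO1, the transaldolase gene, stood out in the JQ1 group because 1 library was far from the other 3. JQ1 replicate 20 was at 5153 normalized counts and the others at 5537 to 5586, a gap of 0.886 of the whole range, above Dixon's 95% critical value for 4 samples. This was 1 of 48 groups of 4 libraries examined, and chance marks about 1 in 20 groups. All 4 JQ1 libraries lay above the DMSO libraries.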

How the results depend on the processing

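The 6 member counts kept within 1.5 times under each other pseudocount, filter, trend, model of 2 groups and under equal totals, equal upper quartiles and limma-voom. Without the fold threshold they were 21 higher and 5 lower with JQ1, 11 and 12 with I-BET 762 and 23 and 1 between the inhibitors. Over 2-fold they were 3 and 0, 1 and 1, and 1 higher with JQ1 than with I-BET 762, with no share of all tested genes given at that threshold. With a library left out they were 9 to 10 and 3 to 3 with JQ1, 4 to 4 and 5 to 6 with I-BET 762, and 9 to 11 and 0 to 0 between the inhibitors. Over all member fold changes and alternatives, 2000 values kept direction and call, 11 lost and 9 gained a call and 32 turned sign. The other filters, no trend, the model of 2 groups and leaving out a library of a group not compared leave a fold change as it was. Direction could therefore not change under them. With equal totals the log2 fold changes with JQ1 that turned were -0.12 for GPI, -0.10 for PGK1, -0.0879 for ENO1, -0.10 for LDHB, -0.0712 for EGLN3 and -0.11 for ADM. The I-BET 762 values were -0.0016 for PFKL, -0.0299 for PFKM and -0.0313 for ENO2, and those between the inhibitors -0.0171 for HK1, -0.0126 for PFKFB4, -0.0456 for PGD, -0.0807 for TKT and -0.0679 for HIF1A. With equal upper quartiles BNIP3 with I-BET 762 was at 0.00072 and TKT between the inhibitors at -0.0021. With equal totals PDK1 gained a call with JQ1 (-0.66). BNIP3 and ANKRD37 with JQ1, TPI1 with I-BET 762 and EPAS1, BNIP3 and NDRG1 between the inhibitors lost theirs. NDRG1 with JQ1 gained a call without DMSO replicate 13 (0.62) or 14 (0.61) or JQ1 replicate 17 (0.59), and between the inhibitors EGLN1 gained one without JQ1 replicate 18 (0.66) or 20 (0.68) and DDIT4 without JQ1 replicate 18 (0.60) or 20 (0.59) or I-BET 762 replicate 22 (0.59). With a library left out the values ran from -0.0196 to 0.11 for GPI and -0.0136 to 0.14 for LDHB with JQ1, from -0.10 to 0.0577 for PFKFB3, -0.0448 to 0.0318 for BNIP3, -0.14 to 0.0242 for NDRG1 and -0.0854 to 0.0337 for ANKRD37 with I-BET 762, and from -0.0115 to 0.0316 for TKT and -0.0225 to 0.0454 for HIF1A between the inhibitors. The log2 ratios ran from -0.0855 to 0.0025 for PFKM/PFKL and -0.0717 to 0.0367 for LDHB/LDHA with I-BET 762, from -0.0738 to 0.0254 for PFKP/PFKL between the inhibitors and from -0.26 to 0.10 for EGLN3/EGLN1 with JQ1. The 10 most abundant genes were also left out of the total only, with all 15 glycolytic enzymes still counted. The 15 enzymes were then at 1.39% of that total with DMSO, 1.95% with JQ1 and 1.67% with I-BET 762. The cause of these shifts was not tested. No paired analysis was possible because the replicate numbers of the 3 groups are all different. At this depth CA9 was not detectable.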
